A study of Mus musculus with 6 samples.

Results

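The messages of 10 nuclear transport receptors were followed through a ribosome purification of mouse embryonic stem cells. They were 9 members of the importin beta family (Kpnb1, Ipo5, Ipo7, Tnpo1, Tnpo3, Xpo1, Cse1l, Xpot and Xpo7) and 1 importin alpha, Kpna2, making 10 of the 51912 genes with an identifier match in the deposited files. The genes were chosen by function and with the eluate against pellet values of these same libraries in view, so their own changes are given as a description with no test. The 11 other importin beta genes, the other importin alphas, the Ran cycle genes and the adaptors are lists written by function. They were tested, but earlier results of these libraries were known when they were written, so their counts are not independent evidence either.

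Poly(A) RNA of the mouse embryonic stem cell line E14 was sequenced at 2 steps of a purification named RAPIDASH. The fraction of interest was the resin eluate, 3 libraries of ribosome material that had passed over and come off a resin charged with cysteine, and it was set against 3 libraries of the sucrose cushion pellet from which that material was taken. The labels name 1 cell line and no genetic change. All 6 samples came from cells given 100 µg/mL cycloheximide, a drug that holds ribosomes on their messages, for 3 min before harvest, and about 75 µg of RNA was loaded on each cushion. The labels call the samples of each kind replicates 1 to 3 and do not state that the cultures were separate. The p-values therefore cover the spread among these 6 samples, which may be technical. Library totals were 10019627 to 11642883 estimated read counts in eluates and 7837621 to 10438536 in pellets. Pellet 1 stood apart from pellets 2 and 3 in a way that followed base composition. Over the 20 importin beta genes, which share the same libraries, the log2 ratio of pellet 1 to the mean of pellets 2 and 3 had a Spearman rho of 0.85 with GC content (the percentage of G and C bases in the leading transcript), and for eluate 3 over eluates 1 and 2 the rho was 0.62. All 8 embryonic stem cell markers fixed for the check passed the filter on low counts, with a summed level of 14620 to 14700 TPM in eluates and 11130 to 12470 TPM in pellets. Dppa5a made up most of that sum, at 10290 TPM in eluates and 7529 TPM in pellets, and the markers did not all move alike, since Sox2 (-0.29, edgeR adjusted p 0.003292) and Zfp42 (-0.21, edgeR adjusted p 0.02292) were lower in eluates. Differentiated germ layer markers summed to 8.68 to 9.37 TPM in eluates and 7.6 to 9.76 TPM in pellets, with Neurog2 at 0, and fibroblast markers to 9.45 to 12.5 TPM in eluates and 6.14 to 9.39 TPM in pellets, nearly all of it Thy1, with Lum and Postn at 0. TPM is a level per transcript length whose total is equal in all libraries, and it can be compared between genes, while CPM is a count scaled to the library total with a TMM factor and takes no account of length. Both are shares of the poly(A) RNA in a library, so a smaller share and a smaller amount of a message cannot be told apart.

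Proteins too large to diffuse through the nuclear pore are carried by receptors of the importin beta family, which bind their cargo on one side of the pore and let it go on the other. The direction is set by the small GTPase Ran. Importins release cargo when they meet Ran bound to GTP in the nucleus, and exportins bind cargo only together with it. Classical import signals are read by an importin alpha, an adaptor that is itself carried by importin beta 1, the product of Kpnb1, and returned to the cytoplasm by the exportin made from Cse1l. Embryonic stem cells express Kpna2 at a high level among the importin alphas.

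The messages of all 10 receptors made up a smaller share of the eluates than of the pellets. Their summed level was 442.1, 429.3 and 403.0 TPM in eluates 1 to 3, against 813.4, 791.4 and 822.1 TPM in pellets 1 to 3, or 424.8 ± 19.95 TPM in eluates and 809.0 ± 15.8 TPM in pellets (SD, n = 3 each). All 10 passed the filter on low counts, and in all 10 every eluate CPM lay below every pellet CPM. That pattern was seen in 31.2% of the 13231 genes tested and the opposite one, every eluate above every pellet, in 29.1%, and since the receptors were chosen from this contrast nothing is read from their count. Their log2 fold changes, eluate over pellet, had a median of -0.94 and ran from -1.75 to -0.46, against a median of 0.003 over all genes tested. The eluate level was therefore between 29.7% (Ipo7) and 73.0% (Kpna2) of the pellet level in the fit. The receptor nearest to no change was Kpna2.

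**Figure D1:**
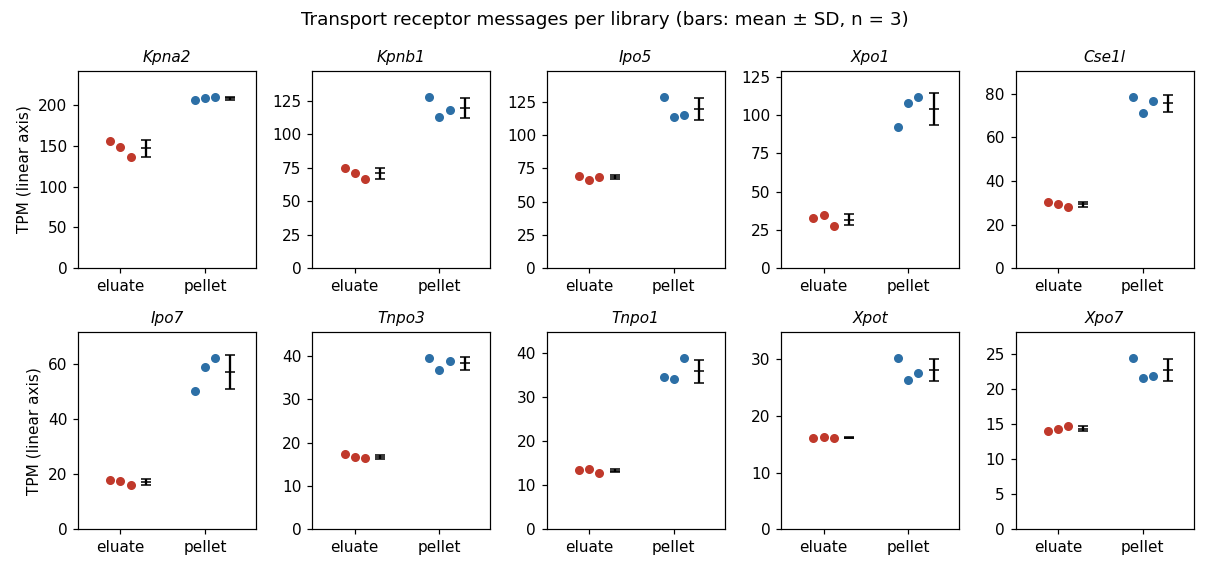
Level of each receptor message in TPM (linear axis from 0, a separate scale for each gene) in the 3 eluate libraries (left of each panel, red) and the 3 pellet libraries (right, blue), with the mean ± SD as bars, and genes in order of pellet level. In all 10 panels the 3 eluates sit below the 3 pellets.

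The importin beta 1 message, Kpnb1, whose product carries importin alpha with its cargo and also takes some cargo directly, was at 74.7, 71.3 and 66.3 TPM in eluates 1 to 3. In pellets 1 to 3 it was at 128.1, 113.0 and 117.7 TPM. The lowest pellet was well above the highest eluate, and the log2 fold change was -0.69 ± 0.07 (SE). Ipo5, a receptor for ribosomal proteins and other basic cargo, was close to Kpnb1 in level, at 69.5, 66.7 and 68.7 TPM in eluates and 129.1, 114.0 and 115.5 TPM in pellets. Its ranges overlapped those of Kpnb1 in both fractions, and its log2 fold change of -0.75 ± 0.06 was also close.

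Kpna2, the importin alpha that binds classical import signals, was the most abundant of the receptor messages in every library. It had 156.2, 148.6 and 136.0 TPM in eluates 1 to 3, against 206.3, 208.3 and 210.6 TPM in pellets 1 to 3. The groups did not overlap, and the log2 fold change of -0.46 ± 0.08 was the smallest in size among the 10. This value is less certain than the others, because 92.7% of the 31-base subsequences of the leading Kpna2 transcript also occur in the gene Gm10184. Gm10184 was assigned 484, 640 and 412 estimated counts in eluates and 388, 384 and 269 in pellets, equal to 17.3% of the Kpna2 count in eluates and 10.7% in pellets. With these counts added to Kpna2, a setting chosen after the data were seen, the log2 fold change was -0.37 ± 0.08. For the other receptors with such a copy, Xpot, Tnpo1 and Ipo5, the copy held 0 or 1 estimated counts in each library.

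Ipo7, which imports ribosomal proteins and, together with importin beta 1, linker histone, stood lowest. It was at 17.8, 17.7 and 16.01 TPM in eluates 1 to 3 and at 50.3, 58.7 and 62.2 TPM in pellets 1 to 3. The lowest pellet was far above the highest eluate, and the log2 fold change was -1.75 ± 0.14. Tnpo1, transportin 1, brings in RNA-binding proteins that carry a proline-tyrosine signal. Its level was 13.5, 13.56 and 12.8 TPM in eluates, against 34.4, 33.95 and 38.8 TPM in pellets, a log2 fold change of -1.42 ± 0.09. Tnpo3 imports splicing factors rich in serine and arginine, and was at 17.3, 16.7 and 16.4 TPM in eluates and 39.6, 36.8 and 38.8 TPM in pellets, with a log2 fold change of -1.13 ± 0.07. The 3 libraries of a fraction lay close together for both genes, and the fractions were apart.

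Among the exportins, Xpo1 carries proteins with leucine-rich export signals and is the main protein exporter of the cell. Its message was at 32.5, 34.85 and 27.7 TPM in eluates 1 to 3, against 92.2, 107.7 and 112.0 TPM in pellets 1 to 3. The highest eluate was far below the lowest pellet, and the log2 fold change was -1.73 ± 0.16. Cse1l, whose product returns importin alpha to the cytoplasm, was at 30.5, 29.4 and 28.1 TPM in eluates and 78.7, 70.97 and 76.9 TPM in pellets, a log2 fold change of -1.36 ± 0.07. In pellets Cse1l lay below Xpo1 with no overlap, while in eluates the ranges of both genes overlapped.

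Xpot, the exporter of transfer RNA, was at 16.09, 16.3 and 16.1 TPM in eluates 1 to 3 and at 30.3, 26.4 and 27.7 TPM in pellets 1 to 3, with a log2 fold change of -0.74 ± 0.07. Xpo7, an exporter with a broad set of protein cargo, was at 14.02, 14.3 and 14.8 TPM in eluates and 24.5, 21.65 and 21.95 TPM in pellets, with a log2 fold change of -0.64 ± 0.07. Both were at a low level among the 10 receptors in pellets and changed less than Xpo1, Cse1l and the transportins.

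The order of the messages therefore differed between the fractions. By mean TPM in eluates the order was Kpna2, Kpnb1, Ipo5, Xpo1, Cse1l, Ipo7, Tnpo3, Xpot, Xpo7 and Tnpo1, and the pairs of neighbours Kpnb1 and Ipo5, Xpo1 and Cse1l, and Ipo7 and Tnpo3 overlapped in range. The eluate range of Xpot, 16.09 to 16.28 TPM, also lay within that of Ipo7, 16.01 to 17.81 TPM. By mean TPM in pellets it was Kpna2, Kpnb1, Ipo5, Xpo1, Cse1l, Ipo7, Tnpo3, Tnpo1, Xpot and Xpo7, with overlap between Kpnb1 and Ipo5 and between Tnpo3 and Tnpo1 only. Tnpo1 was last in eluates at 13.3 ± 0.39 TPM, below Xpo7 at 14.4 ± 0.39 TPM. In pellets Tnpo1 was above both Xpot and Xpo7, at 35.7 ± 2.68 TPM against 28.1 ± 1.99 TPM and 22.7 ± 1.57 TPM (SD, n = 3).

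Within a fraction the libraries were not alike for these genes. Eluate 3 was the lowest of the eluates for 7 of the 10 receptors, and pellet 2 the lowest of the pellets for 7 of the 10. The log2 ratio of pellet 1 to the mean of pellets 2 and 3 was lowest for Ipo7, at -0.27, and for Xpo1, at -0.25, while Ipo5, Xpo7, Xpot and Kpnb1 had 0.15 to 0.17. Without pellet 1 the log2 fold changes of Ipo7, Xpo1 and Tnpo1 were -1.90, -1.88 and -1.52, and that of Kpna2 was -0.53. The authors' deposited table of the same comparison holds 4892 genes, all with an adjusted p under 0.05. All 10 receptors are among them, and in the edgeR fit here 52.7% of the 13231 genes tested were called in either direction. Since the receptors were chosen from this contrast, nothing is read from their presence. Their log2 fold changes in the authors' table ran from -1.64 (Ipo7) and -1.63 (Xpo1) to -0.42 (Kpna2).

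The 20 genes of the importin beta family did not all follow this direction. Of the 11 family genes outside the list of receptors, 7 were lower in eluates, 1 was higher and 3 did not pass the test (edgeR quasi-likelihood test, Benjamini-Hochberg adjusted p under 0.05 over all genes tested), against 28.2% of all genes tested lower and 24.5% higher, or 52.7% in either direction. Their median log2 fold change was -0.64, from -1.49 to 0.33. Xpo4, an exporter of a translation factor among other proteins, had the smallest p of the lower genes, with 4.44, 4.29 and 4.11 TPM in eluates and 11.03, 10.39 and 10.54 TPM in pellets, a log2 fold change of -1.29 ± 0.08 and an edgeR adjusted p of 4.035e-08. Ipo11, an importin of ubiquitin-conjugating enzymes, was lower at -1.39 ± 0.09 (edgeR adjusted p 4.403e-08), and Xpo5, the exporter of precursor microRNAs, at -0.69 ± 0.08 (edgeR adjusted p 3.414e-06). Ipo9, an importer of histones and actin, was lower by less, at -0.29 ± 0.07 (edgeR adjusted p 0.003436), a call lost without both libraries numbered 3 (0.05895). The one higher gene was Xpo6, the exporter of actin, with 33.3, 30.3 and 34.7 TPM in eluates and 33.8, 24.5 and 26.3 TPM in pellets. Its eluate and pellet ranges overlapped in TPM and not in CPM, where it averaged 155.7 ± 9.52 in eluates and 123.5 ± 12.1 in pellets (SD, n = 3 each). Its log2 fold change was 0.33 ± 0.08 (edgeR adjusted p 0.002497). That call was lost without both libraries numbered 3, at an edgeR adjusted p of 0.0912, and with summed TPM in limma, at an adjusted p of 0.1661. The genes that did not pass were Tnpo2 at 0.02 ± 0.08, Ipo4 at -0.21 ± 0.09 and Ipo13 at 0.31 ± 0.14. Ipo13 had an edgeR adjusted p of 0.07362 with all libraries and 0.0001166 without pellet 1, where its log2 fold change was 0.51. It also passed with the replicate number as a block, at 0.32 (0.02364), and with no filter on low counts (0.0159). Ipo4, at 0.07149 with all libraries, had an edgeR adjusted p of 0.04717 without eluate 1 and 0.04791 with the replicate number as a block.

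Across the family the change tracked base composition closely, and it had almost no rank relation with length over the lengths that the family spans. Over the 20 genes the Spearman rho of the log2 fold change was 0.92 with the GC content of the leading transcript, 0.94 with the GC content at codon position 3 and 0.86 with that of the 3′ untranslated region. It was 0.02 with transcript length and -0.01 with coding length, which spans only 2631 to 3615 nt in this family. The transcripts of the family ran from 3471 to 8680 nt, with a median of 4669 nt against 2765 nt over all genes tested. The rho values therefore cannot show how the change of these long messages relates to that of shorter ones. They are descriptions over genes measured in the same 6 libraries, and 9 of the 20 are the receptors chosen from this contrast. The 7 genes with a GC content under 45%, Xpo1, Ipo7, Tnpo1 and Cse1l among them, had log2 fold changes from -1.75 to -1.29. The 8 genes between 45% and 50%, which include Kpnb1, Ipo5, Tnpo3, Xpot and Xpo7, ran from -1.13 to -0.29, and the 5 genes at 50% or more, none of them among the receptors, from -0.69 to 0.33. The class edges were chosen after the values were seen. Among the receptors GC content ran from 38.6% (Xpo1) to 47.8% (Kpnb1), and the median over all genes tested was 50.8%.

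**Figure D2:**
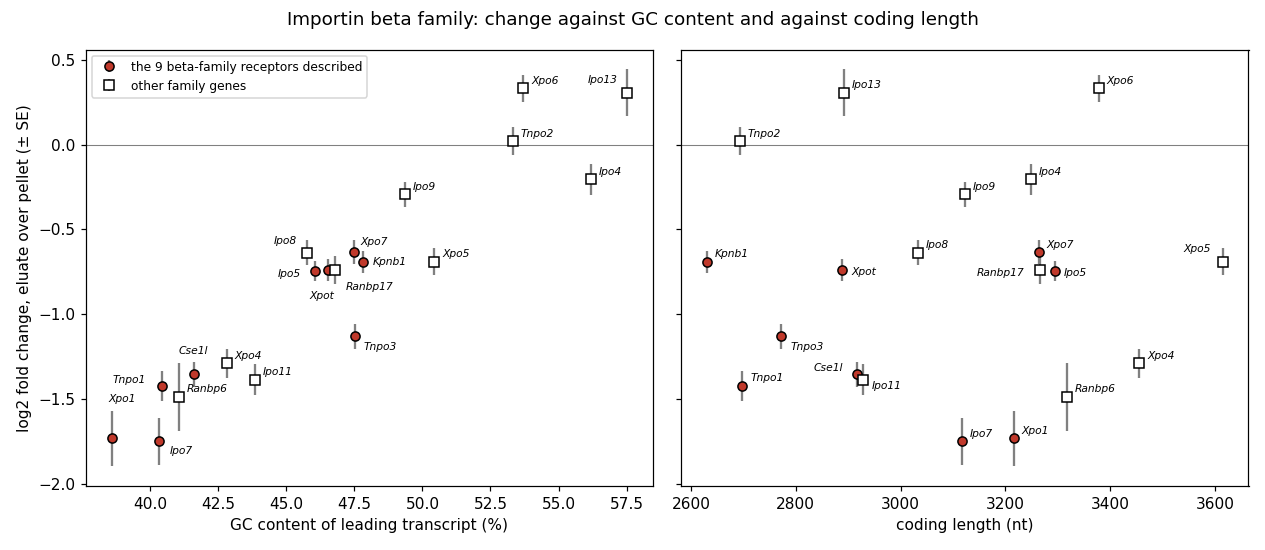
Log2 fold change, eluate over pellet, with its SE, of the 20 importin beta genes against the GC content of the leading transcript in percent (left) and against coding length in nt (right). Filled circles are the 9 beta-family receptors and open squares the 11 other family genes. On the left the points climb with GC content (rho 0.92) and on the right they show no slope (rho -0.01).

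Paralog pairs encode related proteins in coding sequences that can differ in base composition. For 5 of the 10 receptors the closest gene in the lists shared over 40% of its protein positions by alignment of the translated coding sequences, and no other receptor shared more than 28.5% with any of them. Tnpo1 and Tnpo2, a pair of transportins with overlapping cargo, share 85.8% of positions. Of the 429 codons in which both genes encode the same amino acid with different bases, Tnpo1 had the lower GC in 261 and the higher in 83, and position 3 was 50.6% GC in Tnpo1 and 71.5% in Tnpo2. Tnpo2 was at 24.2, 23.4 and 24.1 TPM in eluates and 30.55, 21.5 and 24.2 TPM in pellets, with overlap of the fractions, and had a log2 fold change of 0.02 ± 0.08 (edgeR adjusted p 0.8539) beside -1.42 ± 0.09 for Tnpo1. The 50 codons below are the first stretch with the most shared amino acids in the alignment without a gap, codons 780 to 829 of Tnpo1 (chromosome 13, minus strand) and 779 to 828 of Tnpo2 (chromosome 8, plus strand), from the GENCODE mouse release 21 transcripts (GRCm38), 5′ to 3′, with capitals at the 40 bases that differ. They are shown because 49 of the 50 codons encode the same amino acid while GC content is 44.0% in Tnpo1 and 60.7% in Tnpo2.
Tnpo1: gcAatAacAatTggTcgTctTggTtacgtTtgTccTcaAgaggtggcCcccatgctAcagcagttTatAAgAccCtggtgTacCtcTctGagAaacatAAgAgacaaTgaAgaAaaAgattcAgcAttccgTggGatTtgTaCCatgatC
Tnpo2: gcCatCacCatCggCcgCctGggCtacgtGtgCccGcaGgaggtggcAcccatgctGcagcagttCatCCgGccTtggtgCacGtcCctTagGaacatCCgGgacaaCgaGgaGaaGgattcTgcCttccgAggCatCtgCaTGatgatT

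Ipo7 and Ipo8, importins that share 64.2% of protein positions, differed the same way. Ipo7 had the lower GC in 211 and the higher in 97 of 378 synonymous codon differences, with position 3 at 36.6% GC in Ipo7 and 54.2% in Ipo8. Ipo8 was at 10.15, 9.64 and 9.88 TPM in eluates and 17.6, 15.0 and 15.3 TPM in pellets. Its groups did not overlap, and its log2 fold change of -0.64 ± 0.07 (edgeR adjusted p 4.513e-06) was smaller in size than the -1.75 ± 0.14 of Ipo7. The stretch chosen in the same way covers codons 738 to 787 of both genes, on chromosome 7, plus strand (Ipo7), and chromosome 6, minus strand (Ipo8). In it 45 of 50 codons encode the same amino acid, 42 bases differ (capitals), and GC content is 44.0% in Ipo7 and 48.7% in Ipo8.
Ipo7: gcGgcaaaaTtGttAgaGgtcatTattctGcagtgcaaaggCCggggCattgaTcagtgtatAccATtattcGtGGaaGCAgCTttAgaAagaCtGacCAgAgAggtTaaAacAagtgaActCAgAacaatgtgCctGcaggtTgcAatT
Ipo8: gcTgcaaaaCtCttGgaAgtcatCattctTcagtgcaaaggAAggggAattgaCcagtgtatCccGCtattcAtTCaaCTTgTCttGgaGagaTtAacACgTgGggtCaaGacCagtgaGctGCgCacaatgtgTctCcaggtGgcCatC

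Ipo5 and Ranbp6, which share 77.9% of protein positions, stood the other way round, with the receptor the richer in GC. In 372 synonymous codon differences Ipo5 had the lower GC in 103 and the higher in 211, and position 3 was 52.9% GC in Ipo5 and 40.4% in Ranbp6. Ranbp6 was a scarce message, at 1.64, 1.77 and 1.07 TPM in eluates and 3.75, 4.005 and 4.90 TPM in pellets, and it was lower in eluates with a log2 fold change of -1.49 ± 0.20 (edgeR adjusted p 2.625e-05) beside -0.75 ± 0.06 for Ipo5. The stretch with the most shared amino acids, codons 340 to 389 of Ipo5 (chromosome 14, plus strand) and 348 to 397 of Ranbp6 (chromosome 19, minus strand), keeps 45 of 50 amino acids with 32 differing bases. It is 49.3% GC in Ipo5 and 50.7% in Ranbp6, so this stretch does not carry the difference of the whole coding sequences.
Ipo5: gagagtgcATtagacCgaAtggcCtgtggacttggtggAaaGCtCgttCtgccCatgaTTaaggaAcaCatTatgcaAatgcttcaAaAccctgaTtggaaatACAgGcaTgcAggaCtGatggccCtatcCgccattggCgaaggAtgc
Ranbp6: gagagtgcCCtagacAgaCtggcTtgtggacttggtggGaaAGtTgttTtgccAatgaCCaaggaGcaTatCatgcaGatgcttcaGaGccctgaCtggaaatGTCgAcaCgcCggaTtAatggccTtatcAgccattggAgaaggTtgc

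Xpo7 and Ranbp17, an exporter and its relative of less known cargo, share 66.3% of protein positions and were close in GC content of the transcript, at 47.5% and 46.8%. Their log2 fold changes were close too, at -0.64 ± 0.07 for Xpo7 and -0.74 ± 0.08 for Ranbp17 (edgeR adjusted p 3.401e-06). Kpna2 and Kpna4, importin alphas that share 51.7% of positions, were at 46.0% and 41.9% GC, with -0.46 ± 0.08 for Kpna2 and -0.84 ± 0.08 for Kpna4 (edgeR adjusted p 7.959e-07). In all 5 pairs the gene with the lower GC content of the transcript had the lower log2 fold change, in the Xpo7 pair by less than the sum of both SEs. The genes of a pair differed in transcript length too, so the pairs do not isolate base composition. Tnpo1 had 8453 nt and Tnpo2 4863 nt, and Kpna2 had 2054 nt and Kpna4 3726 nt. Ipo7 and Ipo8 had 4763 and 5360 nt, Xpo7 and Ranbp17 4472 and 5001 nt, and Ipo5 and Ranbp6 4518 and 4575 nt. The differences within pairs were not tested, since 1 gene of each pair was chosen by its change.

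**Figure D3:**
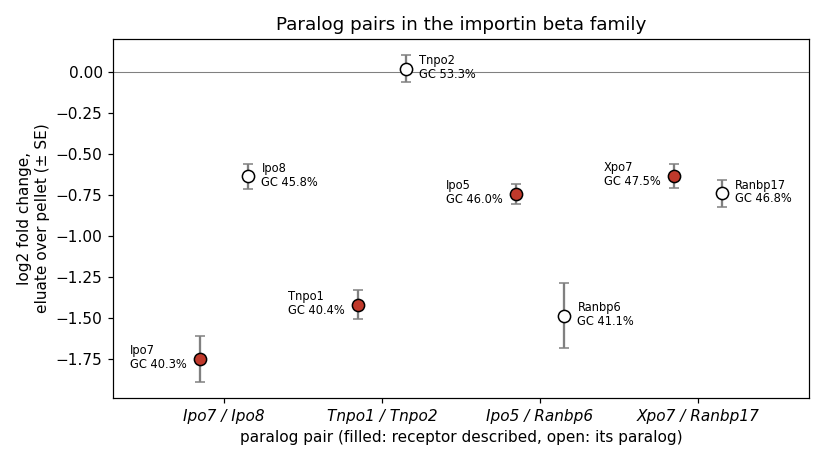
Log2 fold change, eluate over pellet, with its SE, for the 4 importin beta paralog pairs, with the receptor filled and its paralog open, and the GC content of each leading transcript written beside it. Ipo7 and Tnpo1 sit below their paralogs Ipo8 and Tnpo2, Ipo5 sits above Ranbp6, and Xpo7 and Ranbp17 lie close together.

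Length of message was also compared within single genes. For 6 of the 10 receptors 1 transcript held nearly all estimated counts, among them Ipo5, Ipo7 and Kpnb1, which have just 1 matched transcript. For the other 4 a second transcript held at least 1%. Xpo1 had a form of 6004 nt beside its leading form of 3471 nt. The longer form held 39.4%, 38.6% and 36.6% of the Xpo1 count in eluates 1 to 3 and 39.5%, 36.4% and 33.2% in pellets 1 to 3, so the fractions overlapped. Xpo7 had a form of 15121 nt beside its leading form of 4472 nt, with 20.7%, 20.5% and 12.25% of the count in eluates and 20.01%, 22.85% and 22.3% in pellets. Eluate 3 stood below the rest for Xpo7. The second forms of Tnpo1 and Tnpo3 held at most 10.25% in any library. They offer little contrast in length, at 8445 nt beside 8453 nt for Tnpo1 and 3989 nt beside 4251 nt for Tnpo3. By a two-sided exact permutation test over 3 against 3 libraries, which cannot go below p = 0.1, the share of the second form had p = 0.5 for Xpo1, 0.3 for Xpo7, 0.7 for Tnpo1 and 0.5 for Tnpo3, with Benjamini-Hochberg adjusted values of 0.667 to 0.7 over the 4 tests.

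The cofactors of these receptors did not move as 1 group. All 4 of the other importin alphas that passed the filter were lower in eluates, as were 28.2% of all genes tested, with a median log2 fold change of -0.80. When the smooth trend of each library in GC content was removed 2 were called lower, and when that in transcript length was removed as well 1 was, with a median of -0.10 and Kpna1 at 0.07. Of the 13231 genes tested, 2488 were called lower in the first of these fits and 2198 in the second. The fifth, Kpna7, was at 0.22 CPM in eluates and 0.29 CPM in pellets and was not tested. Kpna3 had the largest change at -1.12 ± 0.12 (edgeR adjusted p 1.02e-05), with 19.03, 21.9 and 19.15 TPM in eluates and 40.1, 43.0 and 46.3 TPM in pellets. Kpna4, with the smallest p of the 4, had 19.2, 19.01 and 18.3 TPM in eluates and 32.8, 32.1 and 33.5 TPM in pellets.

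Of the 8 Ran cycle genes, 4 were higher, 1 was lower and 3 did not pass the test, with a median log2 fold change of 0.20, against 24.5% of all genes tested higher and 28.2% lower. After removal of both trends 1 was higher and 1 lower, and in that fit 2556 of the 13231 genes tested were higher and 2198 lower. The median of the list was then 0.014, equal to that of all genes. Ran, the GTPase that sets the direction of transport, was the most abundant of the list, at 758.0, 747.0 and 745.8 TPM in eluates and 696.7, 617.1 and 596.4 TPM in pellets. Every eluate was above every pellet, and its log2 fold change was 0.29 ± 0.06 (edgeR adjusted p 0.001097). Rcc1, the exchange factor that loads Ran with GTP on chromatin, was higher at 0.26 ± 0.06 (edgeR adjusted p 0.002941). Ranbp3, a cofactor of export by Xpo1, was higher at 0.38 ± 0.08 (edgeR adjusted p 0.0006347), and Rangrf, a Ran-binding release factor, at 0.44 ± 0.08 (edgeR adjusted p 0.0002098), although 53.8% of its 31-base subsequences also occur in the gene Gm10355, which held 0 or 1 estimated counts a library. With summed TPM in limma the calls of Rcc1 and Ranbp3 were lost, at adjusted p of 0.2168 and 0.08145. Rangap1, Ranbp1 and Nutf2 (which imports Ran itself) did not pass with all libraries and no correction. With the GC trend removed Rangap1 was called lower at -0.185 (edgeR adjusted p 0.01594), and Ranbp1 and Nutf2 were called higher at 0.30 and 0.197 (edgeR adjusted p 0.0002088 and 0.009439), and none of the 3 was called with GC and length removed (with the replicate block added to that fit Rangap1 was, at 0.04199). Nutf2 also passed without pellet 2, at 0.20 with an edgeR adjusted p of 0.03332. Its value is uncertain, since 91.3% of its 31-base subsequences occur in Nutf2-ps1, which held 536, 440 and 432 estimated counts in eluates and 276, 351 and 205 in pellets. With those counts added Nutf2 was at 0.17 (edgeR adjusted p 0.05148). The lower gene was Ranbp2, the large protein of the cytoplasmic pore filaments on which export complexes come apart. Its message, with a coding length of 9162 nt and 40.6% GC, was at 2.14, 2.20 and 1.45 TPM in eluates and 5.63, 8.23 and 8.63 TPM in pellets, a log2 fold change of -1.97 ± 0.31 (edgeR adjusted p 0.003868).

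Of the 8 adaptor and messenger RNA export genes, 2 were higher, 4 were lower and 2 did not pass, against 24.5% of all genes tested higher and 28.2% lower. Their median log2 fold change was -0.29, which became 0.09 with GC and length removed. Nmd3, the adaptor that takes the large ribosomal subunit out through Xpo1, was at 8.51, 8.88 and 8.70 TPM in eluates and 18.9, 19.2 and 21.35 TPM in pellets. It had the smallest p of the lower genes, with a log2 fold change of -1.20 ± 0.09 (edgeR adjusted p 2.337e-07). Heatr3, whose yeast counterpart escorts ribosomal proteins of the large subunit into the nucleus, was lower at -0.79 ± 0.08 (edgeR adjusted p 7.196e-07). Nxt1, the partner of the messenger RNA export receptor Nxf1, was higher at 0.47 ± 0.08 (edgeR adjusted p 0.0002354), with 96.1, 102.7 and 97.2 TPM in eluates and 77.5, 79.2 and 72.8 TPM in pellets. Nxf1 itself, the bulk messenger RNA exporter, which is not of the importin beta family, had -0.01 ± 0.08 (edgeR adjusted p 0.9381). Alyref, an adaptor of Nxf1 and the most abundant message of this list by CPM, had 0.18 ± 0.07 (edgeR adjusted p 0.03445). That call was lost with library totals alone (0.05493), with summed TPM (0.3844) and without eluate 1 (0.1478), eluate 2 (0.07882), pellet 2 (0.08219) or pellet 3 (0.1148). It was also lost without both libraries numbered 2 (0.1653) or 3 (0.1396). With the GC trend removed Alyref was higher at 0.486 (edgeR adjusted p 3.384e-07), and with GC and length removed at 0.496 (edgeR adjusted p 2.516e-07). Phax, the adaptor for small nuclear RNA, was lower at -0.31 ± 0.09 (edgeR adjusted p 0.006796), and that call was lost without both libraries numbered 2 (0.07467) or 3 (0.1019). Snupn, the adaptor that brings small nuclear ribonucleoproteins back in, had -0.28 ± 0.12 (edgeR adjusted p 0.06642) with all libraries and passed without pellet 1 (0.04699). It also passed without both libraries numbered 1 (0.02995), with summed TPM in limma (adjusted p 0.02622) and with GC and length removed (-0.338, edgeR adjusted p 0.02383). With the GC trend alone removed it did not (edgeR adjusted p 0.4469).

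**Figure D4:**
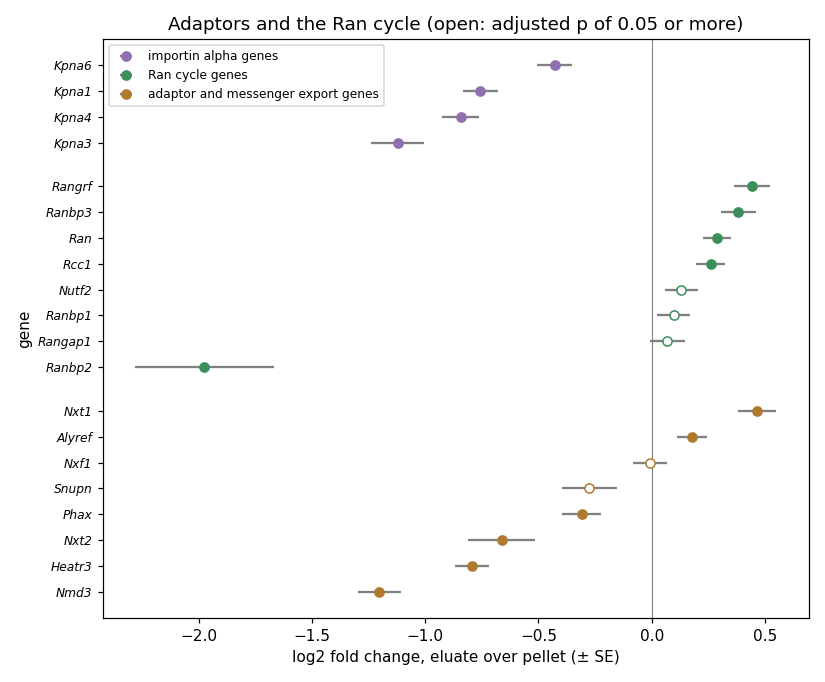
Log2 fold change, eluate over pellet, with its SE, of the importin alpha genes other than Kpna2 (top), the Ran cycle genes (middle) and the adaptor and messenger export genes (bottom), with open points for an edgeR adjusted p of 0.05 or more. The 4 importin alphas lie below 0, and the adaptors fall on both sides. Of the Ran cycle genes, 4 filled and 3 open points lie above 0, and Ranbp2 is at -1.97.

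Since the libraries differed in base composition, the changes were computed again after the smooth trend of each library in GC content, or in GC content and transcript length, was removed. The log2 fold change of all 10 receptors was negative in both fits, although that of Kpna2 was no larger than its SE with the GC trend removed (-0.06 ± 0.06). In that fit every eluate lay below every pellet in 9 of the 10. The share of all genes with that pattern was not computed there. The receptors were chosen from this contrast, so nothing is read from the count. With the GC trend removed their median was -0.52, from -0.89 (Ipo7) to -0.06 (Kpna2), against 0.018 over all genes. With both trends removed it was -0.27, from -0.80 (Ipo7) to -0.17 (Kpna2), against 0.014 over all genes. Ipo7, Tnpo3, Xpo1 and Cse1l were then at -0.80 ± 0.06, -0.79 ± 0.06, -0.77 ± 0.06 and -0.62 ± 0.06, and Tnpo3 kept 69.7% of its change on the log2 scale. The other 6 receptors lay between -0.27 and -0.17, and Tnpo1 kept 19.1% of its change. In that fit Ipo11 (-0.76), Ranbp6 (-0.62), Xpo5 (-0.48), Xpo4 (-0.32) and Ranbp17 (-0.28) were still called lower. So were Ranbp2 (-0.775), Heatr3 (-0.556) and Phax (-0.395). Xpo6 (0.32), Ran (0.52) and Alyref (0.496) were still called higher. Ipo4 and Snupn were called lower at -0.39 and -0.338 (edgeR adjusted p 0.0002272 and 0.02383), and Ipo8 and Ipo9 were no longer called. Of the 4 importin alphas only Kpna3 was still called, at -0.19 (edgeR adjusted p 0.01711). Rcc1, Ranbp3, Rangrf, Nmd3 and Nxt1 also lost their calls, with log2 fold changes of 0.003, 0.04, 0.10, 0.10 and 0.10. Nxt2, a relative of Nxt1 with 36.5% GC, was called lower at -0.66 ± 0.15 without the correction (edgeR adjusted p 0.001327) and higher at 0.40 with it (edgeR adjusted p 0.03173). What gives the libraries these trends was not tested.

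**Figure D5:**
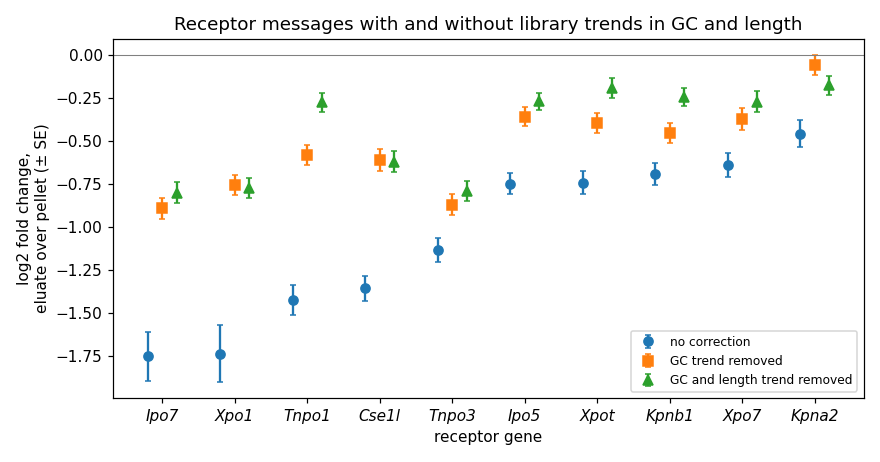
Log2 fold change, eluate over pellet, with its SE, of the 10 receptor messages with no correction (blue circles), with each library's trend in GC content removed (orange squares) and with the trend in GC content and transcript length removed (green triangles). All points lie below 0, that of Kpna2 within its SE of 0 with the GC trend removed. Ipo7, Tnpo3, Xpo1 and Cse1l are lowest when both trends are removed, and Ipo7, Xpo1, Tnpo1 and Cse1l with no correction.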

How the data were processed

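Poly(A) RNA was measured in 3 eluate and 3 pellet libraries, grouped by sample title. The genome build was GRCm39 and the tools were DESeq2 1.44.0, Salmon 1.10.3, STAR 2.7.11b and cutadapt 4.7, in no stated role, per the submitters' processing notes. No annotation release is given in the sources used here. As the file headers show, the deposited library files hold estimated counts, TPM and lengths per transcript. The authors' deposited table holds mean normalized counts (a signal), log2 fold changes with SE, a Wald score and p-values, and all its genes have an adjusted p under 0.05.

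By identifier 76858 of 84226 transcripts were matched to GENCODE mouse release 21 (GRCm38), used for names, lengths, GC content and coding sequences. The builds differ, so no coordinates are printed, and 1.63% to 2.35% of a library's counts were unmatched. Near-identical copies can exchange reads in such estimates. Counts were summed per gene, rounded and tested with edgeR 4.0.16 in R 4.3.3 (robust quasi-likelihood, TMM, default filter, Benjamini-Hochberg adjustment, 0.05), checked on simulated data. There the fit recovered 60% of 50 genes changed 1.5-fold and 88% of 50 changed 4-fold, with 5.42% of calls false. The simulated counts had few changed genes and no GC or length trend. The check therefore does not cover libraries with such trends and 52.7% of genes called. The SE is the log2 change divided by the root of the F statistic. Alternatives, with limma 3.58.1, DESeq2 1.42.0, splines with 5 degrees of freedom for the GC and length trends, a pseudocount of 0.1 on TPM, and libraries left out, are in the closing section. Biopython 1.88 aligned translated coding sequences, which stood in for a protein table. A copy is a gene whose transcripts hold at least 10% of a listed gene's 31-base subsequences. Isoform shares were compared by an exact permutation test.

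The receptors and lists were chosen with earlier results of these data known. All receptors were named. Of other lists, values were to be given for the smallest p in each direction, the highest mean CPM and the closest paralog of a receptor, and the further genes were chosen after their values were seen. Same-numbered libraries did not deviate together in every pair, so the main comparison has no block.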

Additional observations from a re-analysis of the deposited data

How the results depend on the processing

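The log2 fold change of each of the 10 receptors was negative under every alternative run, but with the GC trend removed that of Kpna2 was -0.06 ± 0.06 (SE). With that trend removed every eluate lay below every pellet in 9 of the 10. The share of all genes with that pattern was not computed for that fit, so nothing is read from the count. Of 220 comparisons of a receptor's change with an alternative, 185 moved by less than the spread and 35 by more, and none reversed. Their median of -0.94 was -0.52 with the GC trend removed and -0.27 after removal of both the GC and the length trend, also with the replicate block, and between -0.969 and -0.918 when 1 library was left out. The filter on low counts kept Kpna7 out of the test, at 0.22 CPM in eluates and 0.29 CPM in pellets.

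Of all genes, 3241 were called higher and 3736 lower. The higher count was 1949 without both libraries numbered 3 and also 1949 with summed TPM, and the lower count was 2488 with the GC trend removed, 2198 with GC and length, and 2204 with the replicate block and GC and length. The replicate block alone gave 3306 higher and 3770 lower. Deviations of same-numbered libraries correlated at 0.07, 0.15 and -0.01, and those of differently numbered ones at -0.18 to 0.11. The labels do not say what a shared number marks, so whether the numbers pair the samples is not known. Leaving out 1 library gave 2615 to 3722 higher and 3224 to 4039 lower.

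Other importin beta genes called higher numbered 2 with no filter, with the replicate block and without both libraries numbered 1, and 0 without both numbered 3 and with summed TPM. Leaving out 1 library gave 1 to 2 of them, the 2 without pellet 1. Importin alphas called lower numbered 2 with the GC trend removed and 1 with GC and length, with or without the replicate block. Ran cycle genes called higher numbered 1 with GC and length removed, with or without the block, and 2 with summed TPM, and those called lower 2 with the GC trend removed and with the block, GC and length. Adaptor genes called higher numbered 1 with library totals, without both libraries numbered 2 or 3, with summed TPM and at an adjusted p under 0.01, and 1 to 2 when 1 library was left out.

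Signs changed as follows, and the cause was not tested. With GC and length removed, Ipo9 was 0.069, Kpna1 0.073, Rangap1 -0.148, Nutf2 -0.066, Nmd3 0.095, Nxf1 0.085 and Nxt2 0.395, and with the replicate block added Ipo9 was 0.07, Kpna1 0.07, Rangap1 -0.149, Nutf2 -0.065, Nmd3 0.095, Nxf1 0.086 and Nxt2 0.387. With the GC trend removed, Ipo13 was -0.036, Tnpo2 -0.13, Rangap1 -0.185, Nxf1 0.137 and Nxt2 0.464. With summed TPM, Tnpo2 was -0.075 and Rangap1 -0.05. Tnpo2 was -0.044 without both libraries numbered 2, -0.011 without both numbered 3, and from -0.039 to 0.116 when 1 library was left out. Nxf1 was 0.005 with library totals, 0.006 with no filter, 0.051 with the effective-length offset, 0.024 without both libraries numbered 1, 0.004 without both numbered 3, and from -0.034 to 0.024 when 1 library was left out. The receptors have no test and no call to lose.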
